A study of Mus musculus with 6 samples.

Results

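Hereditary hearing loss has been traced to genes of very different function, and the 32 genes described here are those that lie outside the better known groups of the hair bundle, the gap junctions, the tight junctions and the tectorial membrane. They were listed by name, with earlier results of these data known, and the rule itself used no measured value. A gene belonged to the set when the Ensembl identifier of its row in the count table mapped to one of the listed symbols. All 32 were found among the 48709 mouse genes of the table. They were sorted into 5 groups by the work their products do: ion transport and signalling at membranes (5 genes), transcription (6), the actin and microtubule cytoskeleton (10), scaffolds and trafficking (5), and the endoplasmic reticulum, mitochondria, metabolism and stress (6).

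The cochlea turns sound into nerve impulses. Hair cells carry a bundle of actin-filled stereocilia, supporting cells hold them in place, the stria vascularis pumps potassium into the endolymph that bathes the bundle, and spiral ganglion neurons carry the signal to the brain. Loss of any of these functions can end hearing, which is why a pump, a transcription factor, a myosin and a mitochondrial protease can all be deafness genes. Mutations in most of the human counterparts of the 32 genes are known from families with dominant, recessive or X-linked deafness, some of them with further symptoms in other organs.

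RNA-seq measured the transcriptome of the cochlea in 3 mice that carried the allele Hgf del10Neo on both chromosomes (genotype Hgfdel10Neo/del10Neo, called KI here) and of 3 wild-type littermates (Hgf+/+, called wt). The KI allele lacks 10 bp of intron 5 of Hgf and, by its name, carries a Neo cassette as well. Hgf encodes hepatocyte growth factor, and the strain is a model of the human recessive deafness DFNB39. The animals were between 5 and 27 weeks old, and the sources used here give no age, sex or litter for any of them. The question asked of the 32 genes was at what level each is present in the cochlea, and whether that level differed between the KI and wt cochleae.

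Libraries held between 24005234 and 34437746 mouse gene counts in KI cochleae and between 24144106 and 42312291 in wt cochleae, and the 32 genes together took 0.194% to 0.261% of them. Counts per gene and library ran from 22 (Gipc3) to 31848 (Myh9), so that the counting error was small for all but the lowest genes. Hgf itself was at 9.24, 10.4 and 10.5 CPM (counts scaled to a common library total) in KI cochleae, against 15.4, 16.3 and 15.2 CPM in wt cochleae (log2 fold change -0.63, SE 0.11, edgeR adjusted p = 0.246). Reads of the Neo cassette numbered 71, 199 and 5 in KI libraries, against 5, 8 and 10 in wt libraries, so the library labelled KI replicate 3 was at the wt level for Neo while its Hgf level lay with the other KI libraries. Xist was abundant in 1 library of each group, KI replicate 3 and wt replicate 2. Hair cell markers were detected in every library, with sums of 130.1 to 139 CPM over 10 markers in KI cochleae and 127 to 139 CPM in wt cochleae; Atoh1, which is a gene of developing hair cells, was near 0 (at most 0.341 CPM in KI cochleae and 0.370 CPM in wt cochleae). The dissected tissue also held RNA of bone, marrow, muscle, nerve and fat: all 7 adipocyte markers and all 6 cartilage markers had a positive log2 fold change, while all 6 pigment cell markers, all 5 Schwann cell markers, all 10 skeletal muscle markers, all 6 B cell markers and 5 of 6 spiral ganglion neuron markers had a negative one. Summed adipocyte markers were at 233 to 1313 CPM in KI cochleae and 122 to 242 CPM in wt cochleae, and summed cartilage markers at 151 to 427 CPM in KI cochleae and 91.8 to 177 CPM in wt cochleae. Summed Schwann cell markers were at 387 to 537 CPM in KI cochleae and 445 to 667 CPM in wt cochleae (median log2 fold change -0.49, 3 of 5 lower in KI at an unadjusted p of 0.05), summed neuron markers at 322 to 505 CPM in KI cochleae and 426 to 637 CPM in wt cochleae, and summed B cell markers at 94.5 to 239 CPM in KI cochleae and 104 to 250.1 CPM in wt cochleae. Over all genes tested, 2.54% were higher and 1.96% lower in KI at that p in edgeR's test. All 7 adipocyte markers and 5 of 6 cartilage markers were higher at that p. Of the other lists, 5 of 6 pigment cell markers and 1 of 10 skeletal muscle markers were lower, and 0 of the neuron and B cell markers. None of the markers in these lists was at 0, and their part in the values below was not tested. In whole tissue, fewer cells of a type and less RNA per cell cannot be told apart.

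The 3 genes whose KI libraries all lay below all wt libraries were Actg1, Dcdc2a and Prps1, and the RefSeq promoter windows of these 3 (build GRCm38.p6, 250 bases before to 50 bases after the annotated start) are shown for that reason. The Actg1 window is chr11:120348446-120348745 on the reverse strand, the Dcdc2a window chr13:25055754-25056053 on the forward strand, and the Prps1 window chrX:140456353-140456652 on the forward strand. Capitals mark the CArG box, the site that serum response factor reads in actin and muscle promoters, and the CCAAT box; each is printed on the strand of the gene.
Actg1: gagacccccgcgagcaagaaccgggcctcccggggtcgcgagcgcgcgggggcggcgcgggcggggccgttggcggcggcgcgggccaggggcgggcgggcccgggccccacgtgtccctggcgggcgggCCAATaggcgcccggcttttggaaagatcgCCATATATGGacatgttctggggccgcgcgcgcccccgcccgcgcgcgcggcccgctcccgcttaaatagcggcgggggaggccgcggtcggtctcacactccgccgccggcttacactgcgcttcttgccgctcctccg
Dcdc2a: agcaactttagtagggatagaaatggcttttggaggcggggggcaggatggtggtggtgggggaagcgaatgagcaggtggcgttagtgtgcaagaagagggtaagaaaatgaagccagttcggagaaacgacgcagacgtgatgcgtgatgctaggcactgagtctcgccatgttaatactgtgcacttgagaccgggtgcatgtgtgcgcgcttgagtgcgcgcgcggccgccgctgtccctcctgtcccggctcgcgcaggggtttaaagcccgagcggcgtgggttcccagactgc
Prps1: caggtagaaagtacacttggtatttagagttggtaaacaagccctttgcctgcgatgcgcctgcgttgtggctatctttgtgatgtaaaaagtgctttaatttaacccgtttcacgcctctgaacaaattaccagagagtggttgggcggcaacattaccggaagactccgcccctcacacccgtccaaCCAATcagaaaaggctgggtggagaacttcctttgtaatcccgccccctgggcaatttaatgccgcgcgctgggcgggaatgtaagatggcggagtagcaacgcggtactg
Of the 32 genes, 26 had a window in the RefSeq table, with 33 windows in all. Both strands were searched, and the windows of all genes (32851) gave the background. The CArG box was in 1 of the 33 windows (3.03%, against 1.63% of all windows), and that window was the Actg1 promoter printed above, at positions -90 to -81 from the start. CCAAT was in 14 of the 33 windows (42.4%, against 37.4% of all), TATAAA in 3 (9.09%, against 13.6% of all; Homer2, Myh9 and Slc26a4) and GGGCGG, the GC box, in 17 (51.5%, against 35.7% of all). The Actg1 and Prps1 windows each held CCAAT and several copies of GGGCGG, which are left in lower case. No match to these letters was found in the Dcdc2a window. A match describes the letters of the window and not a site in use, and no motif was shared by all 3 genes.

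None of the 32 genes passed the test between KI and wt cochleae. All 32 had enough counts to be tested, and 0 were called by edgeR's quasi-likelihood test at an adjusted p of 0.05, beside 7 of all 20733 genes tested (0.0338%; 0.00965% higher and 0.0241% lower in KI). With so few genes called in the whole table, a count of 0 among 32 is what the background gives. DESeq2 and limma-voom also called 0 of the 32 (0.0929% and 0.0386% of all genes). At an unadjusted p of 0.05, 1 of the 32 passed in each of the 3 tools, beside 4.50% of all genes in edgeR, 2.41% in DESeq2 and 4.23% in limma-voom, and this was Actg1. In the authors' deposited table, 0 of the 32 passed an adjusted p of 0.05, and 1, again Actg1, an unadjusted p of 0.05 (log2 fold change -0.31, SE 0.141, p = 0.0295).

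The fitted differences were also small. Of the 32 log2 fold changes 12 were positive and 20 negative, with a median of -0.02 (0.00 over all genes tested) and a range of -0.37 (Dcdc2a) to 0.29 (Crym). The median size was 0.09, against 0.12 over all genes. A test that misses its threshold leaves the size of a difference undecided, so the 95% intervals were read directly. All 32 intervals lay within a 2-fold change in either direction, as did 85.1% of all genes tested, and 24 of the 32 (75.0%, against 59.0% of all genes) lay within 1.5-fold. The 32 also had a higher median level than all genes tested (6.29 against 3.05 CPM per kb of merged exons). The part of level in these contrasts with all genes was not tested. The 8 intervals that reached beyond 1.5-fold were those of Esrrb, Actg1, Myh9, Myh14, Dcdc2a, Gipc3, Wfs1 and Crym. The farthest bounds were 1.75-fold higher for Crym and a fold of 0.58 for Dcdc2a. The KI libraries lay wholly below the wt libraries for 3 of the 32 genes (4.01% of all genes tested) and wholly above for 0 (4.71%), so that 3 of the 32 did not overlap in either direction (8.72% of all genes tested). Without the library labelled KI replicate 3, again 0 of the 32 were called, the log2 fold changes ran from -0.35 to 0.29 with a median of -0.02, and none of the 32 reached an unadjusted p of 0.05 in edgeR's test (0.0571 for Actg1, the lowest).

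**Figure D1:**
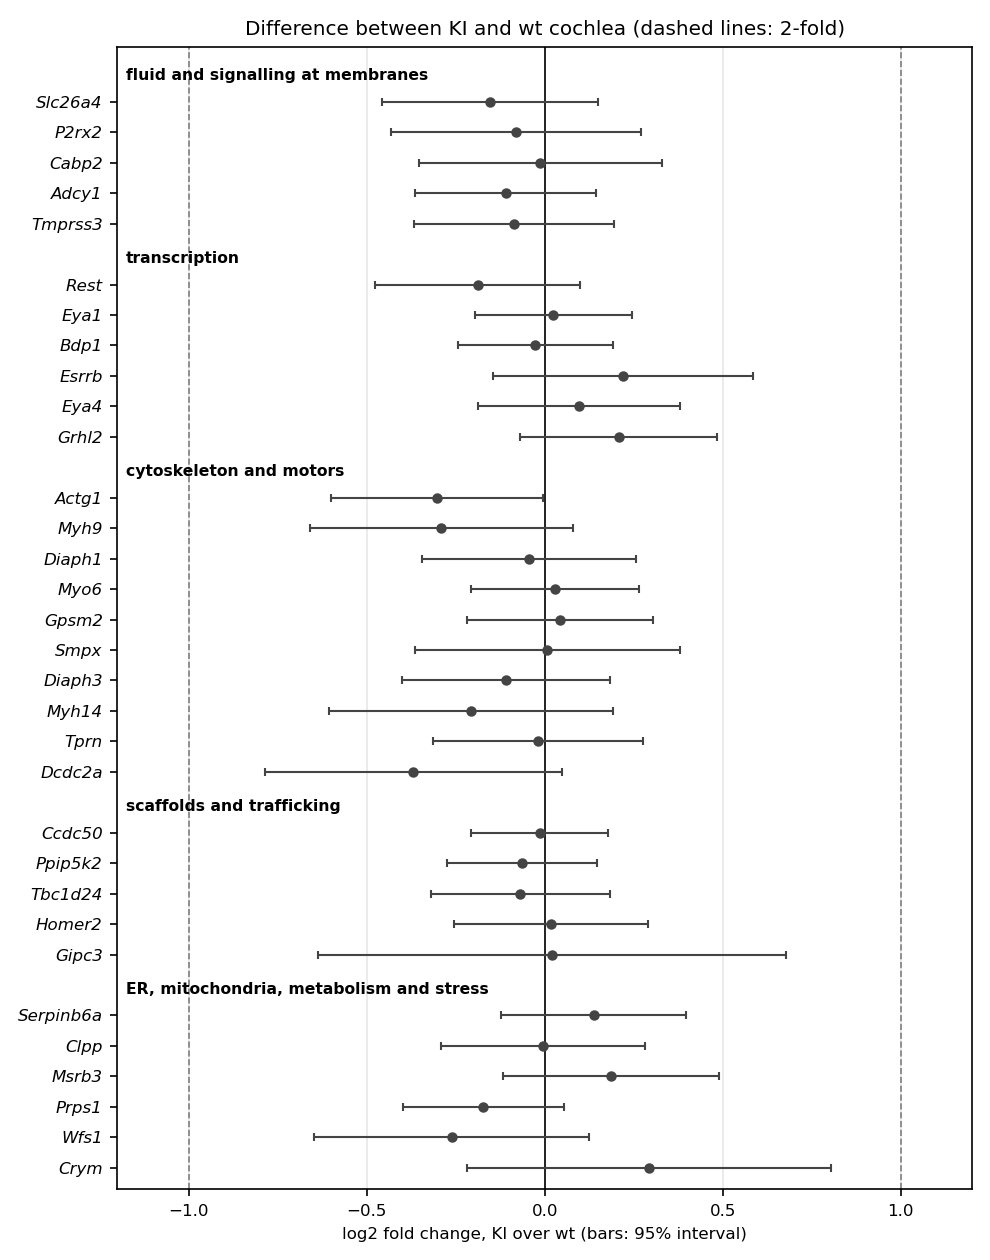
Difference of each of the 32 genes between KI and wt cochleae, by function. Points are log2 fold changes of KI over wt from edgeR (3 libraries each), bars are 95% intervals, and dashed lines mark a 2-fold change; all bars lie between the dashed lines, with the lowest point at -0.37 (Dcdc2a) and the highest at 0.29 (Crym).

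The levels of the 32 genes were spread over a wide range. To compare genes with each other, CPM were divided by the length of the merged exons, and on this scale of CPM per kb the mean over the 6 libraries ran from 0.317 (Gipc3) to 91.2 (Actg1), with a median of 6.29, against 3.05 over all genes tested. The lowest of the 32 was at percentile 8.62 of all genes tested. Actg1 and Myh9 led, at 91.2 and 61.4 CPM per kb, followed after a gap by Diaph1 (17.5), Serpinb6a (17.4), Clpp (15.4), Slc26a4 (15.1), Ccdc50 (13.6), Msrb3 (11.7) and Myo6 (10.5). Crym (0.680), Dcdc2a (0.361) and Gipc3 (0.317) were the 3 under 1 CPM per kb. Of the 31 pairs of neighbours in this order, 26 overlapped in their ranges over the 6 libraries. Both genes of a pair were measured in the same libraries, and the ranges set that pairing aside. An overlap therefore does not show that 2 levels are alike, and differences between neighbours were not tested. The 5 steps without overlap lay between Myh9 and Diaph1, Eya1 and Bdp1, Tmprss3 and Grhl2, Homer2 and Crym, and Crym and Dcdc2a. Between libraries the genes varied little, with a median coefficient of variation of 11.2% (13.9% over all genes tested), a lowest value of 1.58% for Ccdc50 and a highest of 24.3% for Gipc3.

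**Figure D2:**
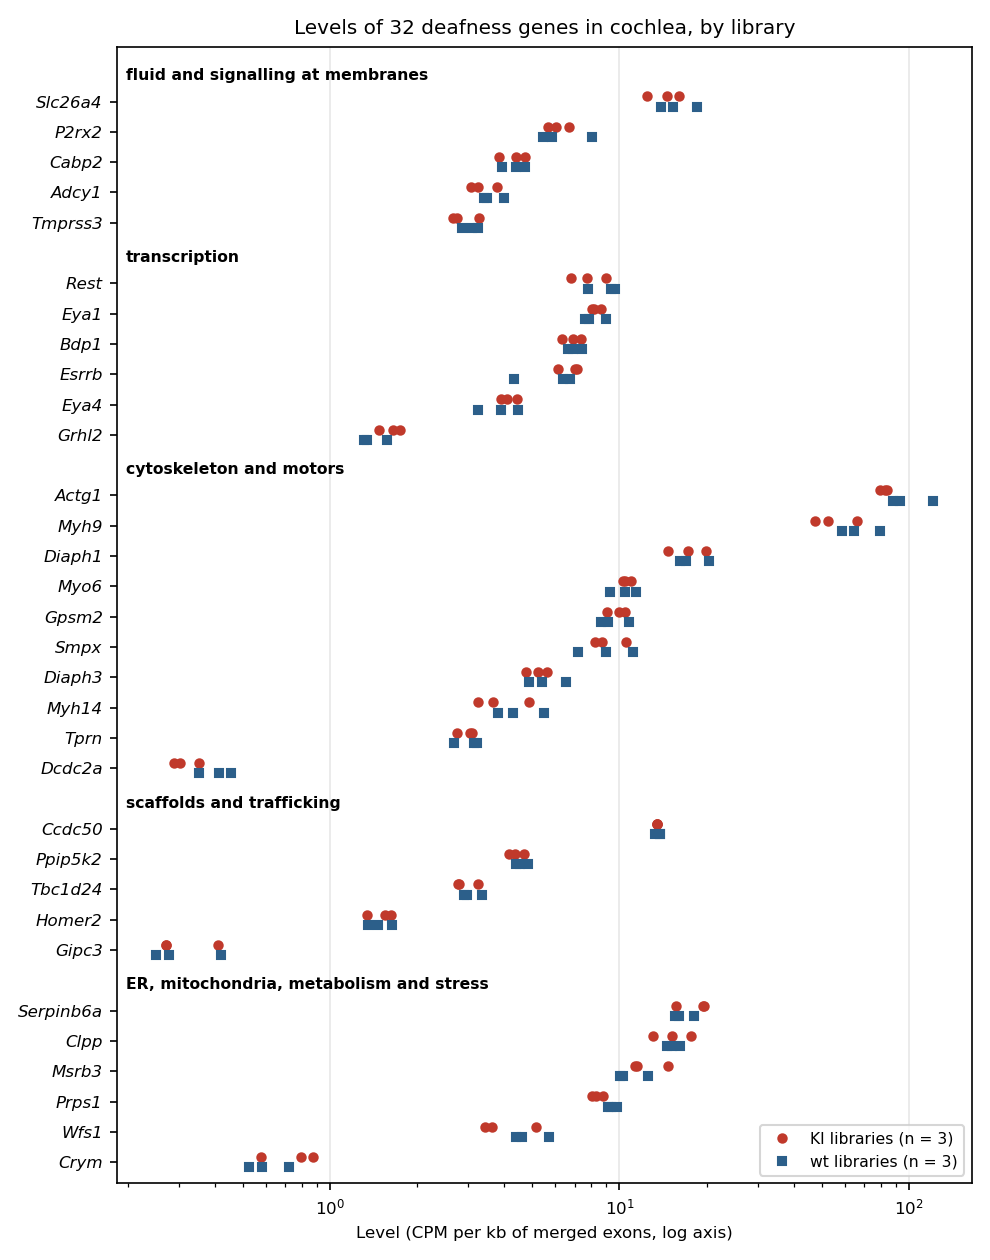
Level of each of the 32 genes in every library, grouped by function, in CPM per kb of merged exons on a log axis. Circles are the 3 KI libraries and squares the 3 wt libraries; Actg1 stands highest at a mean of 91.2 and Gipc3 lowest at 0.317, and the circles and squares of most genes overlap.

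The 5 genes of ion transport and signalling at membranes had levels of 2.98 to 15.1 CPM per kb, and all 5 had a negative log2 fold change, with a median of -0.09 and a range of -0.15 to -0.01; 0 of 5 passed the test, also at an unadjusted p. Slc26a4 (ENSMUSG00000020651, chromosome 12 from 31519827 to 31559969, reverse strand, GRCm38) encodes pendrin, an exchanger of chloride, iodide and bicarbonate that is lost in Pendred syndrome and that in the cochlea is made by root and spindle cells. It was at 38.6, 45.3 and 49.8 CPM in KI cochleae, against 43.4, 57.7 and 47.6 CPM in wt cochleae. The groups overlapped, the highest value being that of wt replicate 2 and the lowest that of KI replicate 1, and the log2 fold change was -0.15 (SE 0.135, edgeR adjusted p = 0.968; fold interval 0.728 to 1.11). Tmprss3, a serine protease of the cell membrane that hair cells need to survive, was the lowest of the group per kb, with 10.9, 12.9 and 10.5 CPM in KI cochleae, against 11.3, 12.3 and 12.9 CPM in wt cochleae. These values were mixed between the groups (log2 fold change -0.09, SE 0.125, edgeR adjusted p = 0.976).

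P2rx2, an ATP-gated cation channel, averaged 15.7 ± 1.33 CPM in KI cochleae and 16.6 ± 3.62 CPM in wt cochleae (SD, n = 3 each). Adcy1, an adenylate cyclase stimulated by calcium and calmodulin, averaged 42.1 ± 4.50 CPM in KI cochleae and 45.5 ± 3.92 CPM in wt cochleae. Cabp2, which keeps the calcium channels of inner hair cells from inactivating, averaged 5.83 ± 0.586 CPM in KI cochleae and 5.86 ± 0.529 CPM in wt cochleae. For all 3 the difference between the means was smaller than the larger of the 2 SDs. P2rx2 made up 24.7% ± 2.17 of the summed CPM per kb of the 7 P2X receptor genes in KI cochleae and 24.6% ± 4.51 in wt cochleae, close to the share of P2rx1 (26.0% ± 4.0 in KI cochleae and 25.6% ± 2.25 in wt cochleae).

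Related transporters did not pass the test either. Of 10 other Slc26 genes 8 were tested, 6 with a positive and 2 with a negative log2 fold change. The largest was that of Slc26a5 (0.50, SE 0.291, edgeR adjusted p = 0.966). It had 3.47, 6.62 and 3.03 CPM in KI cochleae, against 2.69, 2.93 and 3.61 CPM in wt cochleae. Its groups overlapped, and KI replicate 2 was the high library. Slc26a7, a chloride and bicarbonate exchanger of Reissner's membrane and the thyroid, had 65.5, 75.2 and 79.2 CPM in KI cochleae, against 70.5, 62.6 and 63.6 CPM in wt cochleae (log2 fold change 0.16, edgeR adjusted p = 0.966). Foxi1, the transcription factor that switches Slc26a4 on in the endolymphatic sac, was low in the dissected cochlea, at 3.23, 1.95 and 2.69 CPM in KI cochleae and 2.37, 3.30 and 1.43 CPM in wt cochleae. Kcnj10, the potassium channel of strial intermediate cells whose loss accompanies loss of pendrin in mice, stood apart from this list. It was at 25.4, 30.7 and 25.7 CPM in KI cochleae, against 38.9, 39.4 and 32.3 CPM in wt cochleae. All KI values lay below all wt values (log2 fold change -0.43, SE 0.123, unadjusted p = 0.00594), and the call did not hold after adjustment over all genes (edgeR adjusted p = 0.966). Beside it, the summed level of 6 pigment and intermediate cell markers was 29.6 to 38.0 CPM in KI cochleae and 124 to 147 CPM in wt cochleae. Of the 6, 4 were called lower in KI (0.0241% of all genes tested), and none was at 0. The part of these cells in the Kcnj10 value was not tested.

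**Figure D3:**
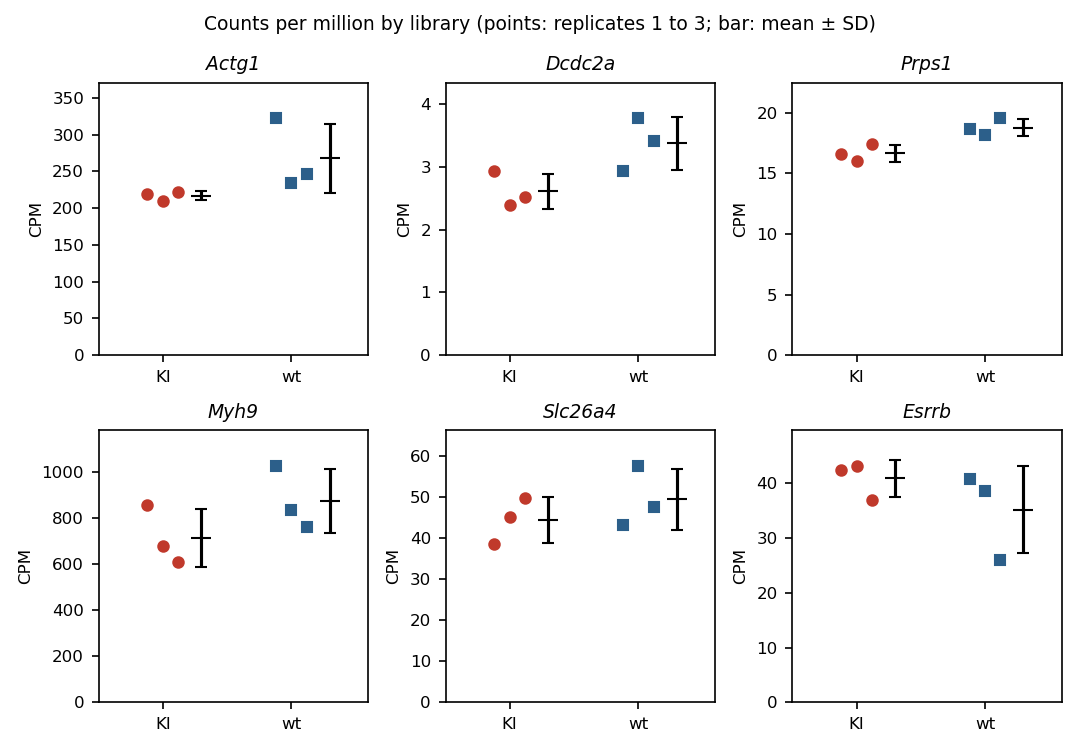
CPM of Actg1, Dcdc2a, Prps1, Myh9, Slc26a4 and Esrrb in each library, KI left of wt, with the mean and SD of each group (n = 3 each). Actg1, Dcdc2a and Prps1 have all KI points below all wt points, with wt replicate 1 far above the rest for Actg1, and in the other 3 panels the groups overlap.

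Of the 6 transcription genes 4 had a positive and 2 a negative log2 fold change, with a median of 0.06 and a range of -0.19 to 0.22, and 0 passed the test at an adjusted or unadjusted p. Esrrb (ENSMUSG00000021255, chromosome 12 from 86361117 to 86521628, forward strand) encodes an orphan nuclear receptor needed by the marginal cells of the stria vascularis. It was at 42.5, 43.2 and 37.0 CPM in KI cochleae, against 40.8, 38.7 and 26.1 CPM in wt cochleae. Wt replicate 3 was the low library, and the other 5 lay close together. The log2 fold change was 0.22 (SE 0.163, edgeR adjusted p = 0.966), and it was 0.04 without wt replicate 3. The sum of 6 marginal cell markers, Esrrb among them, was 430 to 527 CPM in KI cochleae and 445 to 504 CPM in wt cochleae, with 3 positive and 3 negative log2 fold changes.

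Grhl2, a grainyhead factor that maintains epithelia, was the lowest of the group per kb (1.52) and had 12.8, 15.1 and 14.2 CPM in KI cochleae, against 11.6, 13.6 and 11.3 CPM in wt cochleae. The KI values reached higher than the wt values but overlapped them (log2 fold change 0.21, SE 0.123, edgeR adjusted p = 0.966). Rest, which represses neuronal genes and was the highest of the group per kb (8.38), had 64.7, 56.0 and 49.0 CPM in KI cochleae, against 69.7, 56.1 and 67.5 CPM in wt cochleae. Its log2 fold change was -0.19 (SE 0.128, edgeR adjusted p = 0.966), and its groups overlapped too. REST is known in hair cells for an alternative exon that inactivates it, and counts per gene do not tell its isoforms apart. Of 6 genes for its corepressors 5 had a negative and 1 a positive log2 fold change, with 0 called.

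Eya1, a phosphatase and transcriptional coactivator lost in branchio-oto-renal syndrome, averaged 64.7 ± 2.37 CPM in KI cochleae and 63.6 ± 5.76 CPM in wt cochleae. Its relative Eya4, mutated in a dominant late-onset deafness, averaged 39.0 ± 2.53 CPM in KI cochleae and 36.5 ± 5.60 CPM in wt cochleae. Bdp1, a subunit of the initiation factor TFIIIB of RNA polymerase III, averaged 75.7 ± 5.66 CPM in KI cochleae and 77.1 ± 4.30 CPM in wt cochleae. Each of the 3 differed by less than the larger SD. All 4 Eya genes were present: per kb, Eya1 made up 27.2% ± 0.643 of their sum in KI cochleae and 27.8% ± 1.32 in wt cochleae, and Eya4 13.6% ± 0.944 in KI cochleae and 13.2% ± 1.87 in wt cochleae, with Eya2 and Eya3 each taking between 23.7% and 36.9% in every library.

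The 10 cytoskeletal genes included the most abundant genes of the set, Actg1 and Myh9, and the most negative log2 fold changes, those of Dcdc2a and Actg1. Of the 10 log2 fold changes 3 were positive and 7 negative, with a median of -0.08 and a range of -0.37 to 0.04; 0 passed the test and 1, Actg1, an unadjusted p of 0.05. Actg1 (ENSMUSG00000062825, chromosome 11 from 120345690 to 120348542, reverse strand) encodes gamma-actin, a cytoplasmic actin of stereocilia and of most other cells. It was at 219, 210.2 and 223 CPM in KI cochleae, against 322, 235 and 247 CPM in wt cochleae. The 3 KI libraries were within a narrow band, all wt libraries were above it, and wt replicate 1 stood far above the other wt libraries. The log2 fold change was -0.30 (SE 0.133, unadjusted p = 0.0479, edgeR adjusted p = 0.966), a level 1.23-fold lower in KI, with a fold interval of 0.660 to 0.998. Without wt replicate 1 the log2 fold change was -0.15. Actb, the other cytoplasmic actin, was highest in the same library, at 3219, 3147 and 2840 CPM in KI cochleae, against 4214, 3015 and 3438 CPM in wt cochleae (log2 fold change -0.21, edgeR adjusted p = 0.966). As a share of the summed CPM per kb of the 2 genes, Actg1 made up 6.68% ± 0.558 in KI cochleae and 7.06% ± 0.276 in wt cochleae, with overlapping groups. Actg1 shares stretches of at least 93 bases (the read length) at 95% identity or more with 6 other genes or pseudogenes, so its counts depend on how such reads were assigned.

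Dcdc2a (ENSMUSG00000035910, chromosome 13 from 25056004 to 25210706, forward strand) encodes a doublecortin-domain protein of microtubules and cilia. It was at 2.93, 2.39 and 2.51 CPM in KI cochleae, against 2.93, 3.77 and 3.42 CPM in wt cochleae. KI replicate 1 and wt replicate 1 were almost level, so the separation of the groups rested on a very small gap. The log2 fold change was -0.37 (SE 0.186, unadjusted p = 0.0763, edgeR adjusted p = 0.966), the most negative of the 32, on a gene among the lowest in level. Of 5 other doublecortin-domain genes 4 were tested, 2 with a positive and 2 with a negative log2 fold change.

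Myh9 (ENSMUSG00000022443, chromosome 15 from 77760587 to 77842175, reverse strand) and Myh14 encode heavy chains of non-muscle myosin II, the motor that contracts actin at cell junctions. Myh9 was at 855, 679 and 610 CPM in KI cochleae, against 1027, 833 and 761 CPM in wt cochleae. Its groups overlapped, since KI replicate 1 was above wt replicates 2 and 3 (log2 fold change -0.29, SE 0.164, edgeR adjusted p = 0.966). Myh14 was at 35.3, 26.5 and 23.6 CPM in KI cochleae, against 31.2, 40.0 and 27.6 CPM in wt cochleae (log2 fold change -0.21, SE 0.178, edgeR adjusted p = 0.966). Myh10, the third heavy chain and not one of the 32, was at 88.1, 69.0 and 76.5 CPM in KI cochleae, against 89.3, 98.6 and 92.7 CPM in wt cochleae. All KI values of Myh10 were below all wt values (log2 fold change -0.26, unadjusted p = 0.0382, edgeR adjusted p = 0.966). The mix of the 3 heavy chains was of like composition in both groups: per kb, Myh9 made up 82.9% ± 1.05 in KI cochleae and 83.2% ± 2.57 in wt cochleae, and Myh14 5.85% ± 0.248 in KI cochleae and 5.63% ± 1.18 in wt cochleae. The 9 myosin light chain and regulator genes had 4 positive and 5 negative log2 fold changes, with 0 called.

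**Figure D4:**
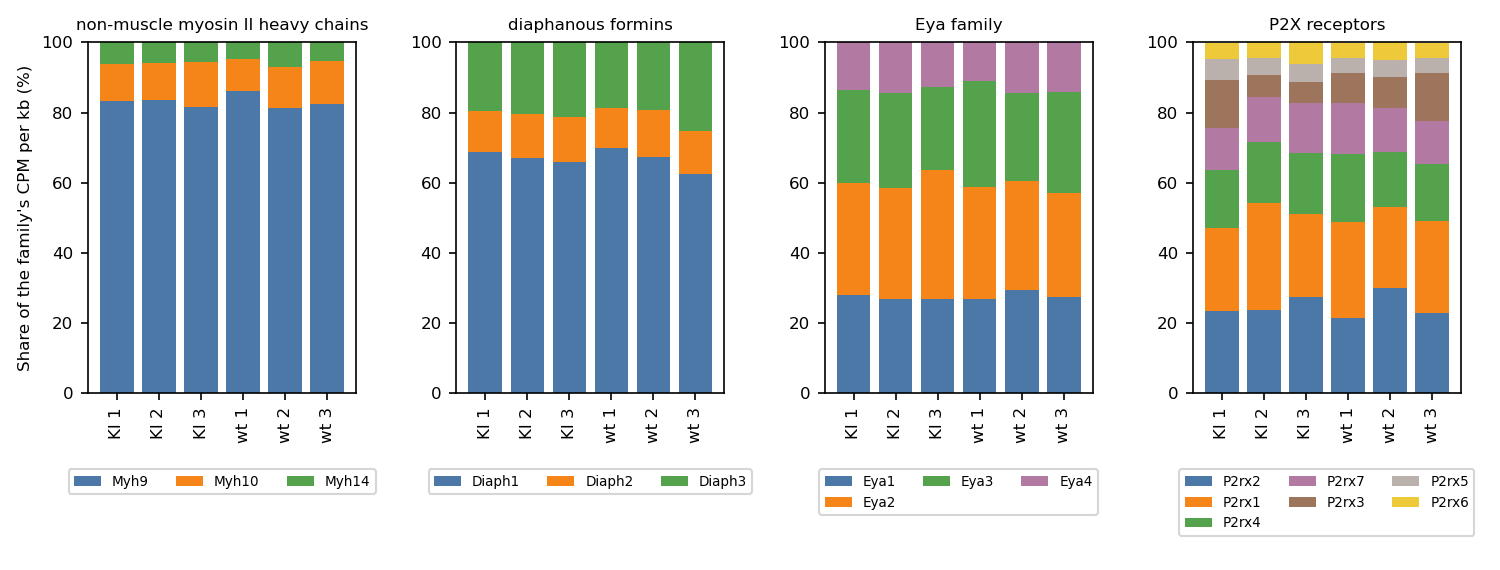
Share of each member in the summed CPM per kb of its gene family in every library, KI libraries left of wt libraries, for non-muscle myosin II heavy chains, diaphanous formins, Eya genes and P2X receptors. Myh9 takes 81.2% to 86.1% of the myosins and Diaph1 62.4% to 70.0% of the formins in the 6 libraries, and KI and wt bars overlap for the members of the 32.

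The formins Diaph1 and Diaph3 elongate straight actin filaments. Diaph1 averaged 109 ± 16.5 CPM in KI cochleae and 113 ± 14.0 CPM in wt cochleae, and Diaph3 29.0 ± 2.5 CPM in KI cochleae and 31.3 ± 4.68 CPM in wt cochleae. Per kb, Diaph1 made up 67.2% ± 1.42 of the 3 diaphanous formins in KI cochleae and 66.5% ± 3.86 in wt cochleae. Diaph3 made up 20.4% ± 0.897 in KI cochleae and 21.1% ± 3.58 in wt cochleae, with the highest share, 25.2%, in wt replicate 3. That library also had the highest sum of 6 markers of dividing cells. The sums were 1737, 1573 and 1275 CPM in KI cochleae and 1629, 1187 and 1862 CPM in wt cochleae. Diaph3 was at 31.4, 29.2 and 26.4 CPM in KI cochleae and 30.1, 27.2 and 36.4 CPM in wt cochleae. These levels kept the order of the sums within each group. The Diaph3 share did not, at 19.5%, 20.4% and 21.3% in KI cochleae and 18.7%, 19.4% and 25.2% in wt cochleae. None of the 6 markers was at 0, and their part in the Diaph3 level was not tested.

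The remaining 4 cytoskeletal genes differed by less than the larger SD of their groups. Myo6, the myosin that walks toward the pointed end of actin and anchors stereocilia, averaged 128 ± 4.65 CPM in KI cochleae and 125 ± 13.2 CPM in wt cochleae. Tprn, taperin of the stereocilia base, averaged 8.68 ± 0.543 CPM in KI cochleae and 8.83 ± 0.845 CPM in wt cochleae. Gpsm2, which places the spindle and guides the growth of stereocilia, averaged 38.4 ± 2.81 CPM in KI cochleae and 37.2 ± 4.51 CPM in wt cochleae, and its 8 partner genes (Gnai and polarity genes) had 3 positive and 5 negative log2 fold changes with 0 called. The exons of Gpsm2 overlap those of Clcc1 on the opposite strand over 5.19% of their length, where reads may belong to either gene. Smpx, a small X-linked protein of striated muscle and of hair cells, had 23.9, 19.8 and 18.7 CPM in KI cochleae, against 16.4, 25.4 and 20.4 CPM in wt cochleae. Its highest library in each group, KI replicate 1 and wt replicate 2, also had the highest sum of 10 skeletal muscle markers (2769 to 4697 CPM in KI cochleae and 3634 to 5801 CPM in wt cochleae, none of the 10 at 0). Wt replicates 1 and 3 went the other way, with sums of 3855 and 3634 CPM beside 16.4 and 20.4 CPM of Smpx. The part of muscle in the Smpx level was not tested.

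The 5 scaffold and trafficking genes were the group with the smallest differences, with log2 fold changes of -0.07 to 0.02, a median of -0.01, 2 positive and 3 negative, and 0 passing at an adjusted or unadjusted p. Ccdc50 (ENSMUSG00000038127, chromosome 16 from 27388869 to 27452218, forward strand), a ubiquitin-binding effector of epidermal growth factor signalling, was the highest of the group per kb and the steadiest of the 32. It was at 117, 116 and 117 CPM in KI cochleae, against 119, 115 and 119.6 CPM in wt cochleae. The log2 fold change was -0.01 (SE 0.0856, edgeR adjusted p = 0.994; fold interval 0.867 to 1.13). Gipc3 (ENSMUSG00000034872, chromosome 10 from 81335265 to 81343266, reverse strand), a PDZ-domain protein of hair cells, was the lowest of the 32. It was at 1.45, 0.956 and 0.954 CPM in KI cochleae, against 0.884, 1.48 and 0.979 CPM in wt cochleae. A single library was high in each group, and the log2 fold change of 0.02 (SE 0.293, edgeR adjusted p = 0.997) had the widest fold interval of this group, 0.643 to 1.6. Per kb, Gipc3 made up 2.27% ± 0.515 of the 3 GIPC genes in KI cochleae and 2.05% ± 0.676 in wt cochleae, while Gipc1 made up 93.4% ± 0.833 in KI cochleae and 94.4% ± 1.45 in wt cochleae.

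Homer2, a scaffold of stereocilia and synapses, averaged 19.0 ± 1.85 CPM in KI cochleae and 18.8 ± 1.86 CPM in wt cochleae. Tbc1d24, a regulator of vesicle traffic that is also an epilepsy gene, averaged 25.1 ± 2.28 CPM in KI cochleae and 26.3 ± 1.99 CPM in wt cochleae. Ppip5k2, a kinase that makes inositol pyrophosphates, averaged 63.2 ± 3.93 CPM in KI cochleae and 66.0 ± 3.29 CPM in wt cochleae. The difference was smaller than the larger SD for each of them. Within their families, Homer2 took 24.2% ± 1.48 of the Homer genes per kb in KI cochleae and 23.8% ± 2.52 in wt cochleae, and Ppip5k2 took 55.8% ± 1.99 of the PPIP5 kinases in KI cochleae and 57.7% ± 2.88 in wt cochleae. Tbc1d24 shares near-identical stretches with 14 other genes, the longest of 148 bases.

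Of the 6 genes of the endoplasmic reticulum, mitochondria, metabolism and stress, 3 had a positive and 3 a negative log2 fold change, with a median of 0.07 and a range of -0.26 to 0.29; 0 passed at an adjusted or unadjusted p. Prps1 (ENSMUSG00000031432, chromosome X from 140456613 to 140476140, forward strand) encodes a synthetase of phosphoribosyl pyrophosphate, the sugar phosphate from which nucleotides are built. It was at 16.6, 16.0 and 17.4 CPM in KI cochleae, against 18.7, 18.1 and 19.5 CPM in wt cochleae. All KI values lay below all wt values, each group had a narrow spread, and the step between the groups was small (1.13-fold lower in KI; log2 fold change -0.17, SE 0.101, unadjusted p = 0.120, edgeR adjusted p = 0.966). The gene is X-linked, and the libraries with abundant Xist, KI replicate 3 and wt replicate 2, were the highest of the KI group and the lowest of the wt group. Prps2 had 34.4, 35.6 and 38.2 CPM in KI cochleae, against 44.9, 36.6 and 43.5 CPM in wt cochleae, with overlapping groups (log2 fold change -0.21, edgeR adjusted p = 0.966). Per kb, Prps1 made up 25.1% ± 1.01 of Prps1, Prps2 and Prps1l3 in KI cochleae and 25.9% ± 1.5 in wt cochleae.

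Wfs1 (ENSMUSG00000039474, chromosome 5 from 36966104 to 36989205, reverse strand) encodes wolframin, a membrane protein of the endoplasmic reticulum that is lost in Wolfram syndrome and mutated in low-frequency deafness. It was at 19.5, 13.8 and 13.0 CPM in KI cochleae, against 17.4, 21.5 and 16.6 CPM in wt cochleae. KI replicate 1 lay inside the wt range and the other 2 KI libraries below it (log2 fold change -0.26, SE 0.172, edgeR adjusted p = 0.966). Without KI replicate 1 the log2 fold change was -0.47 and the edgeR adjusted p 0.456, the lowest of any of the 32 genes in any refit; without wt replicate 2 the log2 fold change was -0.14, and without KI replicate 3 it was -0.16. The 9 endoplasmic reticulum stress genes listed beside it had 3 positive and 6 negative log2 fold changes with 0 called. Among them the chaperone gene Hspa5 was at 585, 709 and 542 CPM in KI cochleae, against 585, 460.0 and 527 CPM in wt cochleae (log2 fold change 0.22, edgeR adjusted p = 0.966).

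Crym (ENSMUSG00000030905, chromosome 7 from 120186380 to 120202111, reverse strand) encodes mu-crystallin, which binds thyroid hormone in the cytosol and in the cochlea is known from fibrocytes. It was at 1.96, 2.97 and 2.69 CPM in KI cochleae, against 2.45, 1.78 and 1.98 CPM in wt cochleae. The most positive log2 fold change of the 32 was its 0.29 (SE 0.228, edgeR adjusted p = 0.966), with overlapping groups and few counts. Msrb3, a methionine sulfoxide reductase, was at 45.8, 46.4 and 59.6 CPM in KI cochleae, against 40.7, 50.9 and 41.8 CPM in wt cochleae (log2 fold change 0.19, SE 0.135, edgeR adjusted p = 0.966). KI replicate 3 was its highest library, and without it the log2 fold change was 0.05. Msrb3 made up 16.4% ± 2.12 of the Msrb genes per kb in KI cochleae and 14.3% ± 2.27 in wt cochleae. Serpinb6a, an intracellular protease inhibitor, was at 84.9, 106 and 105 CPM in KI cochleae, against 84.4, 86.9 and 98.1 CPM in wt cochleae (log2 fold change 0.14, SE 0.116, edgeR adjusted p = 0.966). Its exons overlap genes on the opposite strand, Nqo2 over 14.1%, 1110046J04Rik over 10.8% and Ripk1 over 4.46% of their length, and since the sources used here do not give the strand setting of the counting, reads there may belong to Serpinb6a or to its neighbours.

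Clpp, the protease subunit of the mitochondrial matrix whose loss causes Perrault syndrome, averaged 18.8 ± 2.80 CPM in KI cochleae and 18.8 ± 0.981 CPM in wt cochleae. Of 7 genes of mitochondrial proteostasis and of the same syndrome, 5 had a positive and 2 a negative log2 fold change with 0 called. Lars2, the mitochondrial leucyl-tRNA synthetase, was uneven between libraries: it was at 28.5, 82.8 and 2873 CPM in KI cochleae, against 471, 83.0 and 79.2 CPM in wt cochleae (log2 fold change 2.24, SE 1.40, edgeR adjusted p = 0.966). The high values were those of KI replicate 3 and wt replicate 1, and Clpp, at 16.0, 18.6 and 21.6 CPM in KI cochleae and 19.9, 18.6 and 17.9 CPM in wt cochleae, was highest in the same libraries but over a far narrower range. A link between Clpp and Lars2 was not tested.

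Genes related to the 32 likewise gave no call. Of 73 further members of the gene families above, 65 were tested, with 29 positive and 36 negative log2 fold changes, 0 called and 1 (Myh10) under an unadjusted p of 0.05. Of 56 partner genes 23 were positive and 33 negative, with 0 called and 1 (Kcnj10) under an unadjusted p of 0.05. Over all genes tested, 4.50% were under that p in edgeR's test, and both counts of 1 lay below that share. The 44 deafness genes of the hair bundle, connexin, tight junction and tectorial groups had 28 positive and 16 negative log2 fold changes, a median of 0.07 (-0.02 for the 32) and 0 called. At an unadjusted p of 0.05, 6 of the 44 were higher in KI and 0 lower (2.54% and 1.96% of all genes tested). These 6 were Cib2 (log2 fold change 0.48) and Pcdh15 (0.41) of the transduction machinery, Strc (0.45) of the stereocilia, Ildr1 (0.32) of tight junctions, and Otoa (0.25) and Ceacam16 (0.27) of the tectorial membrane. Beside them stood 7 supporting cell markers, none at 0. Their sum was 486 to 527 CPM in KI cochleae and 404 to 468 CPM in wt cochleae. Otoa is both among these 7 and among the 6. Of the 7 log2 fold changes 5 were positive and 2 negative. The sum of 10 hair cell markers, Strc among them, was 130.1 to 139 CPM in KI cochleae and 127 to 139 CPM in wt cochleae. Of the 9 hair cell markers tested, 6 had a positive and 3 a negative log2 fold change. The part of supporting cells and hair cells in the 6 values was not tested. The difference between the 32 and the 44 genes was not tested either.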

How the data were processed

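Cochlear RNA of 3 KI and 3 wt mice was depleted of ribosomal RNA, and random-primed libraries were sequenced from both ends (93 bases each), per the labels' protocols. Reads were mapped to GRCm38 (GENCODE M11) with STAR 2.5.2, and groups were compared with DESeq2, per the submitters' processing notes and the design text; the sources used here name neither the counting program nor its strand setting. The authors deposited whole-number read counts per gene, and a table of their comparison with a mean signal per feature (size-factor-scaled counts), a log2 fold change, a test score and p-values. Their regularized log2 values were left aside.

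Of 48733 rows, 24 were spike-in or transgene sequences (0.00151% to 0.00450% of a library's counts) and were left out of totals and tests. Symbols, coordinates and exon lengths came from GENCODE M21 on the same build. Counts were filtered with filterByExpr, scaled by TMM and tested with edgeR 4.0.16 (glmQLFit and glmQLFTest, group only, two-sided; R 4.3.3), with Benjamini-Hochberg adjustment over 20733 genes. The SE is the absolute log2 fold change over the root of F, and intervals use the t distribution of the fit. No 2 libraries agreed within sampling noise (chi-square per degree of freedom 20.9 or more over 15 pairs). On simulated counts for this comparison (20736 genes), edgeR recovered 40 of 50 genes raised 2-fold and 36 of 50 lowered to a fold of 0.5. It also called 19 genes simulated without a change. The changed genes were drawn from those with a mean count of at least 50, so the recovery does not cover Gipc3. The simulation also held 50 genes raised 4-fold and 50 lowered to a fold of 0.25, and all of these were called. Only 7 genes were called in the real fit. With more genes called, the adjusted cut-off was looser in the simulation, so these rates do not give the recovery in the real fit. Alternatives were RLE scaling, no filter, a filter of 1 CPM in 3 libraries, DESeq2 1.42.0, limma-voom (limma 3.58.1), an Xist covariate, and leaving out each library. Near-identical stretches were searched with BLAST 2.17.0. The genes and lists were chosen with earlier results of these data known. Values per library and tests are given for genes whose groups do not overlap, for the 12 smallest p-values, and for the highest and lowest gene of each function. The rest have means, apart from Smpx, Clpp, Diaph3 and some relatives and partners, chosen after their values were seen.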

Additional observations from a re-analysis of the deposited data

Results flagged for a closer look

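Reads of the Neo cassette, which no comparison above uses, exceeded the wt level in 2 of 3 KI libraries. KI replicate 1 had 71 and KI replicate 2 had 199 such reads, and the library labelled KI replicate 3 had 5, against 5, 8 and 10 in wt libraries. Without KI replicate 3, edgeR called 0 of the 32 genes, and 0 reached an unadjusted p of 0.05. Then 5 of the 32 genes (Adcy1, Actg1, Dcdc2a, Tbc1d24 and Prps1) had both KI libraries below all wt libraries (8.61% of all genes tested), and 1 (Esrrb) had both above (9.59%).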

How the results depend on the processing

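None of the 32 genes was called in any of the 12 refits in which it was tested (Gipc3 dropped out under the stricter filter, which left 31), and the lowest adjusted p was 0.456 (Wfs1 without KI replicate 1). Over all genes tested, 2 were called higher and 5 lower. Without a filter on low counts the numbers were 46 higher and 30 lower, with DESeq2 12 higher and 16 lower, and with the Xist covariate 4 were higher. Leaving out 1 library gave between 0 and 13 higher (13 without KI replicate 1) and between 2 and 8 lower (2 without KI replicate 3, 8 without KI replicate 1); the cause was not tested. Of 191 refits of the 16 genes with full statistics, 188 kept the direction; over all 32 genes, 18 kept it in all refits and 14 turned in at least 1. The other 3 of the 191 were of Gipc3, which turned to -0.22 without KI replicate 1, -0.11 without wt replicate 1 and -0.08 without wt replicate 3, and reached 0.27 at most. RLE scaling shifted the median of all genes by 0.00 and moved no level of the 32 by more than 1 SD. Leaving out 1 library moved the log2 fold change by over 1.5 times for 13 of the 16, and not for Grhl2, Dcdc2a and Prps1. The ranges were -0.39 to -0.15 for Actg1, -0.43 to -0.16 for Myh9, -0.39 to -0.04 for Myh14, -0.24 to -0.03 for Slc26a4, -0.18 to -0.03 for Tmprss3, -0.29 to -0.10 for Rest, -0.47 to -0.14 for Wfs1, 0.04 to 0.34 for Esrrb, 0.05 to 0.29 for Msrb3, 0.16 to 0.46 for Crym and 0.08 to 0.24 for Serpinb6a. That of Ccdc50 stayed between -0.03 and -0.01.

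No paired analysis was possible because the labels give no replicate numbers shared between the groups. With 3 animals a group, the 95% intervals give the sizes of difference that these data leave undecided. The lowest genes (Gipc3, Dcdc2a and Crym) rest on the fewest counts. Age (5 to 27 weeks) and litter could not be entered as terms because the sources used here do not give them per animal; sex entered only through the Xist covariate. KI replicate 3 and wt replicate 2 stand apart by Xist.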
